A study of Mus musculus with 4 samples.

Results

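Cytosolic ribosomal protein genes encode the proteins of the large and small subunits of the ribosome that translates nuclear mRNAs. They were taken by symbol, as rows named Rpl or Rps with a number and at most 1 further letter, the stalk and laminin-receptor-type names Rplp0, Rplp1, Rplp2 and Rpsa, and the paralogs Rpl10l, Rpl39l, Rpl3l and Rps27l. That gave 81 of the 28692 genes in the matrix, 50 of the large and 31 of the small subunit, and 4 of them lie on the X chromosome (Rpl10, Rpl36a, Rpl39 and Rps4x). One of the 81, Rpl6l, is annotated as a processed pseudogene of Rpl6. The cells came from testes of C57BL/6 mice at postnatal day 63. The 4 samples were 2 labelled Phf7 tKO, with the genotype Stra8-Cre:Phf7 f/f, in which the Stra8 promoter drives Cre in male germ cells, and 2 labelled Phf7 f/f, the floxed genotype with no Cre named. PHF7 has PHD fingers and is made in male germ cells, and the title of the study concerns BRDT and the exchange of histones for protamines. The counts form 1 matrix with 4 barcode suffixes that mark libraries, and no label ties a suffix to a sample or genotype, so the genotypes were not compared and the matrix stands as 1 sample with no p-value.

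As background, ribosomal protein mRNAs are usually made in balanced amounts, and most begin with a pyrimidine tract that couples their translation to growth signals. In male meiosis the X and Y chromosomes are silenced from the pachytene stage. Autosomal copies of some X-linked genes, often made by retroposition, are expressed in the germ line, and Rpl10l and Rpl39l are the ribosomal examples best known in mouse spermatogenesis.

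The matrix held 32273 barcodes and 190744950 unique molecular identifiers (UMI), with 44447735 to 50353091 UMI per suffix, and 29967 cells were kept. The members took 7445684 UMI, or 3.9% of all. Cells were clustered without the members, and 10 classes were named from marker genes, with 24.4% of cells unnamed. The doublet caller marked 1 cell and so did not work, 497 barcode sequences occurred under more than 1 suffix, and free RNA was not removed. In what follows CPM is counts per 1000000 UMI of a class, not divided by length, because a 3' tag marks each molecule once. A gene was called higher or lower in a class when its pooled CPM was at least 2-fold apart and the direction was shared by all 4 suffixes, among genes with at least 50 UMI over both classes. Intervals are 95%, exact, and cover counting error only. Library suffix 1 stood apart for the members, as described further on, and counts without it are given with each comparison.

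Rpl10l and Rpl39l, the autosomal paralogs of X-linked members on which the results turn, are shown by the stretch upstream of each start, beside that of the parent. These are the 150 bases before the annotated start in RefSeq on GRCm38.p6, read 5′ to 3′ on the gene's strand. Capitals mark CCGGAAG, the core of an ETS factor motif, and TATAAA, the core bound by the TATA-binding protein.
Rpl10l, chr12:66284402-66284551, minus strand: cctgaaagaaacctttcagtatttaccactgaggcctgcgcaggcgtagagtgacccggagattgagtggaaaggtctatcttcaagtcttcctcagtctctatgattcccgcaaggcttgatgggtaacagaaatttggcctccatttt
Rpl10, chrX:74270666-74270815, plus strand: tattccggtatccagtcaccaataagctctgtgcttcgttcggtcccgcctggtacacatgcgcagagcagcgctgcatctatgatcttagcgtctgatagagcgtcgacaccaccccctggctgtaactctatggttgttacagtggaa
Rpl39l, chr16:10170078-10170227, plus strand: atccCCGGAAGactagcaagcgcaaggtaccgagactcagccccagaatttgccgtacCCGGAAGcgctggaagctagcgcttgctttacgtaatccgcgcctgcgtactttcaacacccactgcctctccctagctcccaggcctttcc
Rpl39, chrX:37085223-37085372, minus strand: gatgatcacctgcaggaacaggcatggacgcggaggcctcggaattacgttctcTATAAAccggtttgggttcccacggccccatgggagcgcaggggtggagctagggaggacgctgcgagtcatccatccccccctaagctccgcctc

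The Rpl39l stretch holds CCGGAAG at 2 places and the Rpl39 stretch TATAAA once, while the stretches of Rpl10l and Rpl10 hold neither. The Rpl39 stretch is upstream by RefSeq only, as the GENCODE M21 span of the gene, chrX:37082520-37085402, holds all of it. The search covered both strands of the full RefSeq windows, from 250 bases before to 50 after each start, in which 60 members had 72 windows. In that wider window Rpl39 also matched CCGGAAG, after its start and on the opposite strand. CCGGAAG was in 36.1% of the members' windows and 8.86% of all 32851 windows. AAGATGGC, the core of a YY1 motif, was in 9.72% of the members' windows and 2.75% of all, and TGACGTCA, a cyclic AMP response element, in 6.94% and 1.79%. TATAAA was in 8.33% of the members' windows and 13.6% of all. An unbroken run of at least 8 C or T near the start was in 34.7% of the members' windows and 11.3% of all. These matches describe letters in a window and were not tied to binding or to expression.

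The share of UMI on the 81 genes was highest in spermatogonia-like cells among the germ cell classes and lowest in the spermatids. It was 14.3% in the spermatogonia-like class (692 cells), 8.17% in the early (748) and 5.14% in the late (3196) spermatocyte-like class, and 2.79% in the round (5990) and 2.97% in the elongating (9165) spermatid-like class. The spermatogonia-like share was 4.81 times that of the elongating spermatid-like class. Over the 4 suffixes it ran from 13.7% to 15% in the spermatogonia-like class, 7.72% to 9.17% in early and 4.7% to 6% in late spermatocyte-like, 2.69% to 2.9% in round and 2.92% to 3.09% in elongating spermatid-like cells. No 2 neighbouring germ cell classes overlapped over suffixes, though round and elongating spermatid-like cells came close. By cluster these last classes did overlap, at 1.99% to 3.4% in round and 2.05% to 3.27% in elongating spermatid-like clusters. The lowest late spermatocyte-like cluster, at 3.52%, lay just above them. Members per cell were 669, 305, 573, 240.1 and 242 UMI in the same order. The late spermatocyte-like mean of 573 joins clusters of 69, 450.4 and 2480 member UMI per cell. Round spermatid-like clusters ran from 72.7 to 1197 and elongating ones from 36 to 366. The round cluster with 1197 held 578 cells at a median of 27283 UMI. Pooled values weigh such a cluster by its UMI, not by its cells.

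**Figure D1:**
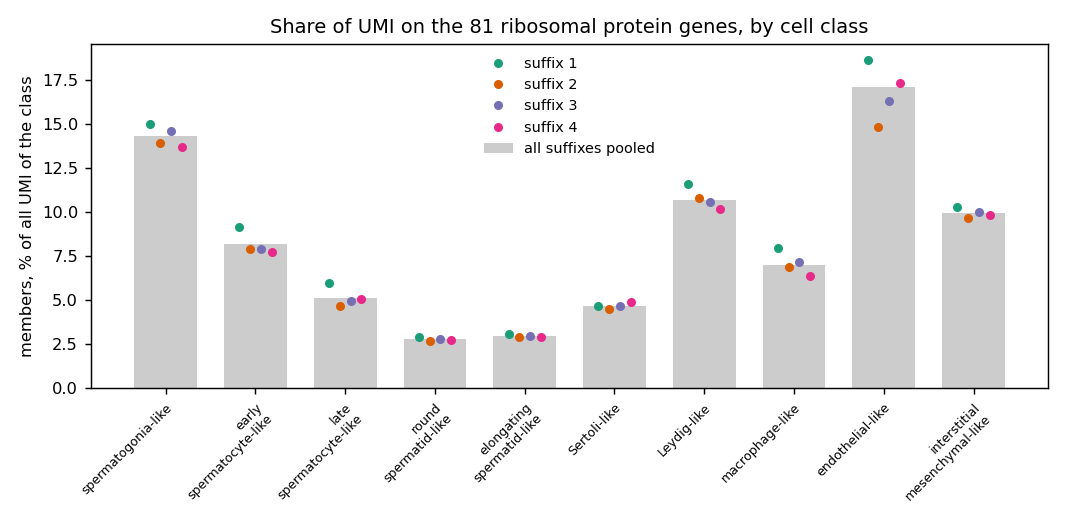
Percent of all UMI of a cell class that fall on the 81 ribosomal protein genes; bars give the pool and points the 4 barcode suffixes. Among germ cell classes the share is highest in spermatogonia-like cells, at 14.3%, and 2.79% and 2.97% in the spermatid-like classes.

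The somatic classes spread as widely. The share was 10.7% in Leydig-like cells (328 cells), which make testosterone, 4.69% in Sertoli-like cells (1965), 7.02% in macrophage-like cells (130), 9.96% in interstitial mesenchymal-like cells (409) and 17.1% in endothelial-like cells (41). The Sertoli-like class was the shallowest, with a median of 1042 UMI per cell, and 4.43% of its UMI lay on the transition protein and protamine genes, against 1.23% in spermatogonia-like and 0.633% in Leydig-like cells. Those genes are transcribed in spermatids, and the part of spermatid RNA in the Sertoli-like values was not tested. In elongating spermatid-like cells the same genes took 15.8% of UMI, and with them left out of the totals the members' share there was 3.53%. The late spermatocyte-like class joined 3 clusters of very different depth. Its deepest cluster, of 514 cells with a median of 33318 UMI, had a member share of 6.31%, and the others had 4.04% and 3.52%.

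Individual members differed widely in level. Among those with the most UMI in spermatogonia-like cells were Rpl13a (5629 CPM) and Rpl32 (4957), beside 1598 CPM for the median member. In early spermatocyte-like cells Rps14 (2805 CPM), Rplp0 (2503) and Rps24 (2483) led, and in late spermatocyte-like cells Rpl13 (2387), Rps14 (1770) and Rplp0 (1680). Round spermatid-like cells were led by Rps14 (1296 CPM), Rpl13 (1280) and Rpl26 (979), with the median member at 278. Elongating spermatid-like cells had another order, with Rps20 at 2172 CPM, Rpl32 at 1558 and Rpl41 at 1334 against a median member of 256. Rps14 led in Leydig-like (4827 CPM), macrophage-like (2640), endothelial-like (6765) and interstitial mesenchymal-like cells (3558), and Rpl13 in Sertoli-like cells (1746).

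**Figure D2:**
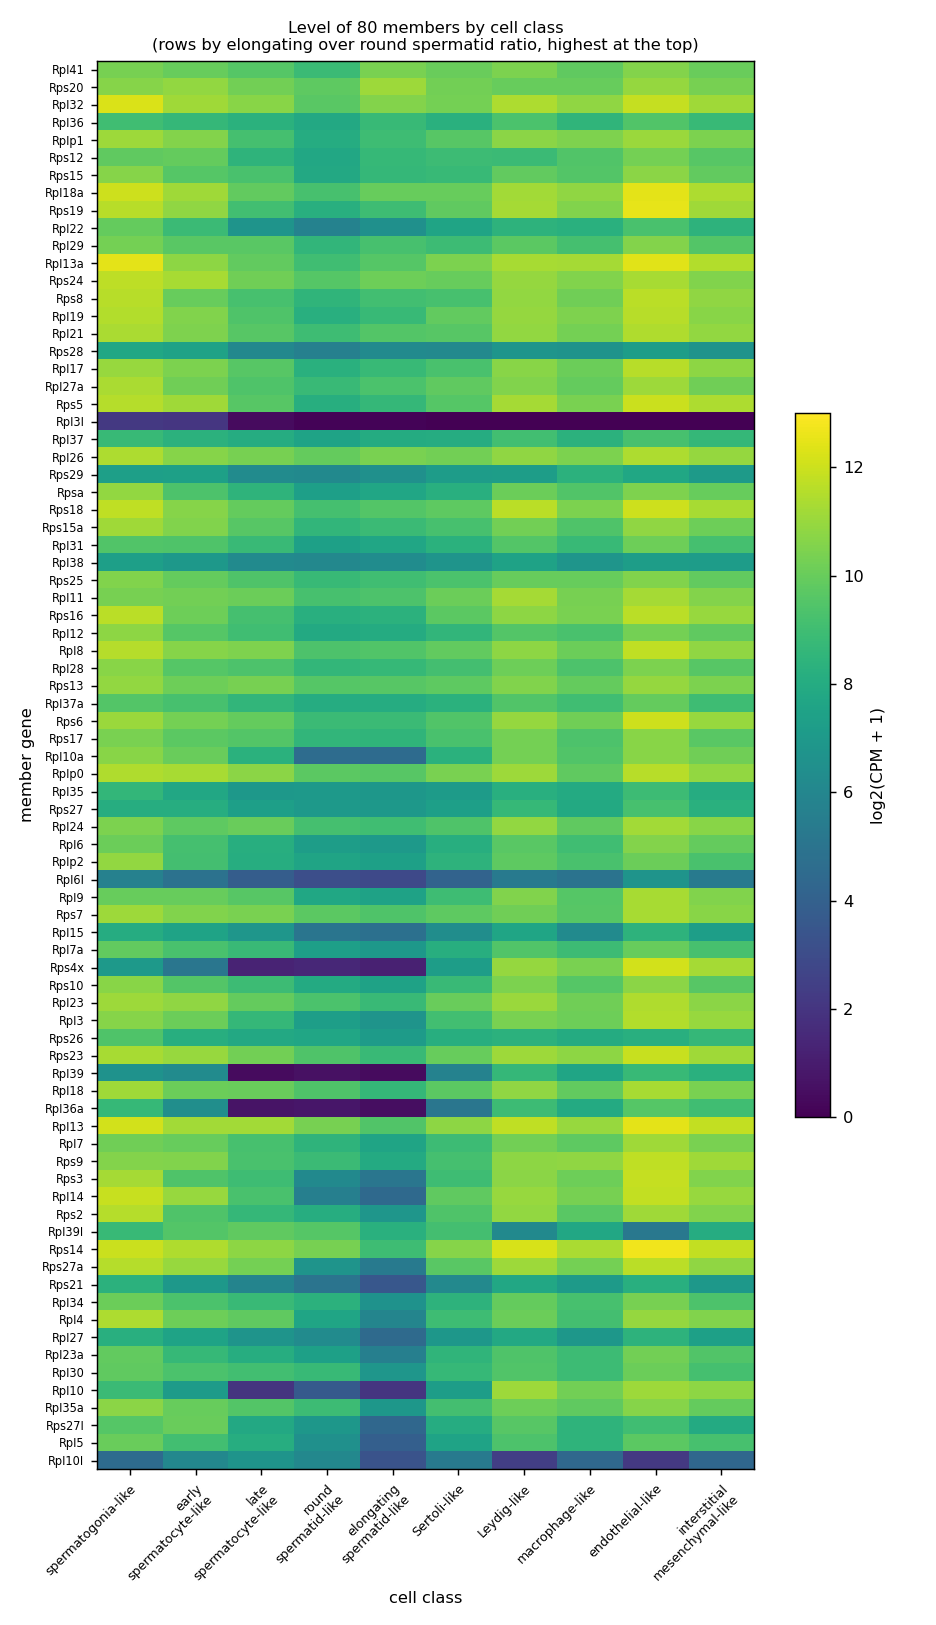
Level of 80 of the 81 members in the 10 cell classes, as log2(CPM + 1), with rows ordered by the ratio of elongating to round spermatid-like cells. Rpl41 and Rps20 head the rows and Rpl10l ends them, and the X-linked Rpl39, Rpl36a, Rps4x and Rpl10 are dark in the late spermatocyte-like and spermatid-like columns.

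The balance among members was loosest in elongating spermatid-like cells. For the 65 members with at least 100 UMI in every class, each level was taken on the log2 scale relative to the median member of the class. The SD of these values across members was 0.85 in spermatogonia-like, 0.815 in early and 1.28 in late spermatocyte-like, and 1.28 in round and 1.82 in elongating spermatid-like cells. In the 5 somatic classes it lay between 0.73 and 0.847. The late spermatocyte-like value rests on Rpl10, whose level relative to the median member there was -7.87 on the log2 scale. The other X-linked members, Rpl39, Rpl36a and Rps4x, did not pass the UMI filter, with 11, 22 and 52 UMI in late spermatocyte-like cells. The values without Rpl10 thus hold no X-linked member. Without Rpl10, left out after the values were seen, the SD was 0.842 in late spermatocyte-like cells, 1.15 in round and 1.64 in elongating spermatid-like cells, and 0.734 to 0.854 in the other classes. The least variable members over the 10 classes were Rpl21, with an SD of 0.17, and Rps18 and Rpl17, each with 0.19. The most variable were Rpl10 (3.11), Rpl14 (1.81) and Rpl10a (1.56). In 42 of the 65 the SD was under 0.5, and the share of all genes under that value was not counted.

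From spermatogonia-like to early spermatocyte-like cells, 24 members were called lower, 55 neither way and Rpl10l alone higher, of 80 tested. Among all genes, 20.5% of the 9370 tested were called lower and 11.1% higher. The median log2 ratio was -0.73 for members and -0.02 for all genes. Without suffix 1, 27 were lower and 1 higher, and with a mitochondrial limit of 20% per cell 15 were lower.

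Rps2, a small subunit protein near the mRNA entry, had 606 to 817 CPM over suffixes in early spermatocyte-like cells, against 2791 to 3263 CPM in spermatogonia-like cells. The ranges lay far apart, and the log2 ratio was -2.14 (-2.21 to -2.06). Rps3, of the mRNA entry channel, had 654 to 720.2 CPM in early spermatocyte-like cells, against 2380 to 2565 CPM in spermatogonia-like cells, at -1.85. X-linked Rpl36a had the lowest ratio, -2.32, and Rps4x was at -1.90. The 2 acidic stalk proteins, which recruit elongation factors, parted: Rplp2 fell, to 551 CPM in early spermatocyte-like cells against 1907 CPM in spermatogonia-like cells (-1.79), while Rplp1 had 1539 CPM in early spermatocyte-like cells and 2223 CPM in spermatogonia-like cells. Their partner Rplp0, the stalk base, had 2503 CPM in early spermatocyte-like and 2839 CPM in spermatogonia-like cells. Rpl39l (0.78), Rps27l (0.42), Rps20 (0.22) and Rpl11 (-0.10) followed Rpl10l among the highest ratios, and none of these was called.

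From early to late spermatocyte-like cells the X-linked members dropped out of step with the rest. Of 80 members tested 23 were lower and 0 higher, against 33.4% and 19.2% of all 11666 genes, with a median log2 ratio of -0.74 for members and -0.28 for all genes. Without suffix 1, 22 were lower. The count of 23 moved with the processing, to 14 with ratios centred on the median gene, 38 at clustering resolution 0.5, and 36 both with list genes allowed in clustering and with means over cells. All 4 X-linked members were among those called lower, at a median log2 ratio of -6.35, while the median of the 76 autosomal members was -0.73. The X chromosome as a whole took 0.147% of UMI in late spermatocyte-like cells and 1.13% in early spermatocyte-like cells.

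Rpl39, a small protein of the peptide exit tunnel, had 0.103 to 0.536 CPM over suffixes in late spermatocyte-like cells, against 53.3 to 109.6 CPM in early spermatocyte-like cells. The log2 ratio was -7.93 (-8.95 to -7.06) from 11 and 210 UMI. Rpl36a, a large subunit protein at the tRNA exit site, had 0.41 to 0.89 CPM in late spermatocyte-like cells, against 55.7 to 123 CPM in early spermatocyte-like cells, a log2 ratio of -7.10 (-7.80 to -6.47). Rpl10, which completes the large subunit near the peptidyl transferase centre, had 1.65 to 3.86 CPM in late spermatocyte-like cells, against 129 to 172 CPM in early spermatocyte-like cells, at -5.60 (-5.92 to -5.28). Rps4x, of the small subunit, had 0.616 to 2.03 CPM in late spermatocyte-like cells, against 29.6 to 35.2 CPM in early spermatocyte-like cells, at -4.51 (-5.03 to -4.00). In none of the 4 did the suffix ranges of the classes overlap, and how often this held among all genes was not counted. The next lowest were autosomal: Rpl22, an RNA-binding large subunit protein, at -2.16 and Rps27l at -2.14. The highest ratios, none called, were Rpl10l (0.64), Rpl39l (0.31), Rpl24 (0.27), Rps13 (0.25) and Rpl8 (-0.13).

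**Figure D3:**
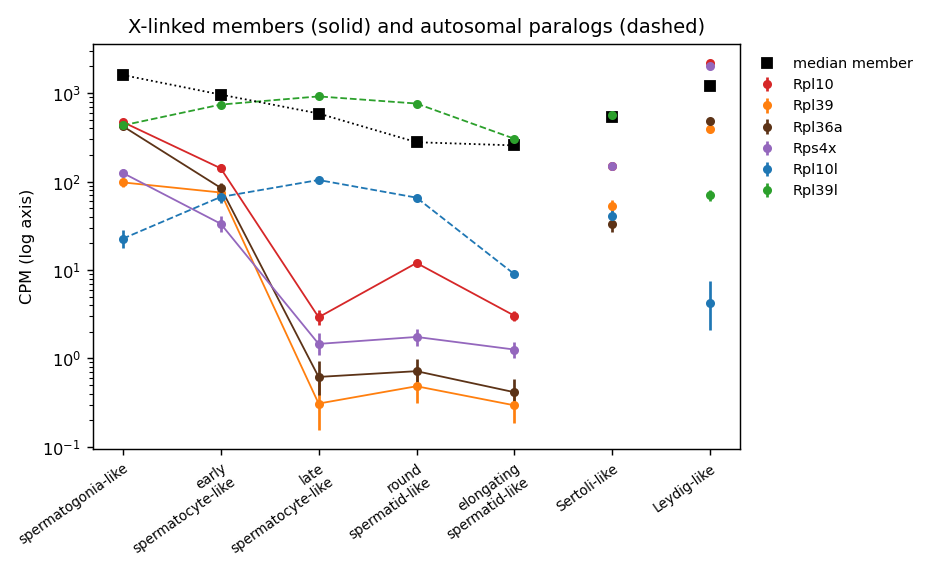
CPM on a log axis of the X-linked members (solid lines), the autosomal paralogs Rpl10l and Rpl39l (dashed) and the median member (squares), pooled over suffixes, with exact 95% Poisson intervals as bars. The X-linked genes lie at or below 12 CPM in late spermatocyte-like and spermatid-like cells, where Rpl39l is at 304 CPM or more.

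From late spermatocyte-like to round spermatid-like cells a few members fell far more than the rest. Of 79 members tested 25 were lower and 1 higher, against 35% and 33.7% of all 14029 genes, with medians of -0.79 for members and -0.32 for all genes. Without suffix 1, 22 were lower and 1 higher. The count of 25 was 8 at clustering resolution 0.5 and 14 both with means over cells and with ratios centred on the median gene. Rpl10a, a large subunit protein of the L1 stalk, had 18.4 to 25.7 CPM in round spermatid-like cells, against 277 to 395 CPM in late spermatocyte-like cells, a log2 ratio of -3.79 (-3.88 to -3.70). Rpl14, of the large subunit, had 43.2 to 52.1 CPM in round spermatid-like cells, against 521 to 798 CPM in late spermatocyte-like cells, at -3.72. Rps27a, made as a fusion with ubiquitin, had 92.6 to 121 CPM in round spermatid-like cells, against 1125 to 1440 CPM in late spermatocyte-like cells, at -3.55. The suffix ranges of the classes were far apart for all 3, and how often this held among all genes was not counted. Rps3 (-2.82) and Rpl4 (-2.21), which reaches into the peptide exit tunnel, came next. Rpl10 was the 1 member called higher, with 9.84 to 14.1 CPM in round spermatid-like cells against 1.65 to 3.86 CPM in late spermatocyte-like cells, a log2 ratio of 2.03 (1.73 to 2.35). Its level stayed below that in early spermatocyte-like cells, and the X chromosome took 1.32% of UMI in round spermatid-like cells. The other X-linked members stayed near the floor, with Rpl39 at 0.485, Rpl36a at 0.718 and Rps4x at 1.75 CPM.

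From round to elongating spermatid-like cells the members held their share of UMI while most other genes fell. Of 79 members tested 18 were lower and 2 higher, against 68.7% and 5.92% of all 13574 genes, with medians of -0.09 for members and -1.86 for all genes. Relative to the median gene the members therefore lay at 1.77, and with ratios centred on that gene 58 members were higher and 1 lower. Without suffix 1, 18 were lower and 2 higher, and 7 were higher both with means over cells and with transition proteins and protamines left out of the totals.

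Rps20, of the small subunit head, had 2019 to 2267 CPM over suffixes in elongating spermatid-like cells, against 798 to 956 CPM in round spermatid-like cells, a log2 ratio of 1.33 (1.32 to 1.35). Rpl41, a very short large subunit peptide, had 1177 to 1574 CPM in elongating spermatid-like cells, against 395 to 590.3 CPM in round spermatid-like cells, a log2 ratio of 1.52. Both were thus higher in every suffix. Rpl36 and Rpl32 (each 0.94) and Rplp1 (0.91) lay just under the 2-fold line. The clusters of the elongating class differed: Rps20 ran from 691 to 3097 CPM and Rpl41 from 855 to 2487 CPM over its 6 clusters, while Rps20 ran from 495 to 986 CPM over the 5 round clusters. The cluster with 3097 CPM of Rps20 had its median member at 179 CPM.

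At the other end Rpl10l fell to 7.5 to 13.4 CPM over suffixes in elongating spermatid-like cells, against 56.2 to 82.2 CPM in round spermatid-like cells, at -2.88 (-3.00 to -2.76). Rpl5, which carries 5S rRNA into the large subunit, fell to 12.6 to 16.1 CPM in elongating spermatid-like cells, against 85.7 to 96.5 CPM in round spermatid-like cells, at -2.66. Its partner in that particle, Rpl11, had 656 CPM in elongating and 592 CPM in round spermatid-like cells, so 2 proteins of 1 particle kept unequal mRNA levels. Rps27l (-2.57), Rpl35a (-2.04) and Rpl10 (-1.98) were also lower. Relative to the median gene only Rpl10l kept a ratio of at least 2-fold downward.

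Most members were called higher in the spermatogonia-like class than in Sertoli-like cells, but few were called higher than in Leydig-like cells. Of 80 tested, 67 were higher and 0 lower than in Sertoli-like cells, against 37.6% and 27.1% of all 9847 genes, with medians of 1.58 for members and 0.40 for all genes. Rpl36a led with 329.9 to 572 CPM over suffixes in spermatogonia-like cells, against 23.9 to 46.4 CPM in Sertoli-like cells, at 3.66, and Rpsa (2.67), Rpl5 (2.49) and Rplp2 (2.48) were also among the highest. Rpl10l (-0.84) and Rpl39l (-0.38) were at the low end. Against Leydig-like cells 9 were higher and 3 lower of 80, beside 43.9% and 18.2% of all 9917 genes, with medians of 0.41 for members and 0.80 for all genes. A log2 ratio above 0, mostly under the 2-fold line, was found for 63 of the 80 members, and one above 0 for 6728 of all 9917 genes. With ratios centred on the median gene 2 members were called higher and 11 lower. The 3 lower members in the uncentred count were all X-linked. Rps4x had 99.2 to 169 CPM in spermatogonia-like cells against 1924 to 2062 CPM in Leydig-like cells, a log2 ratio of -4.00, Rpl10 was at -2.20 and Rpl39 at -2.02. The higher ones were headed by Rpl39l (2.62), Rpl10l (2.41) and Rpl22 (1.56). Without suffix 1 the counts were 67 and 0 against Sertoli-like cells and 11 and 3 against Leydig-like cells.

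The paralogs made up very different shares of their pairs. Of 5 pairs looked for, 4 were found, and in 11 combinations of pair and germ cell class the paralog had more UMI than its parent. Rpl10l (ENSMUSG00000060499, chr12:66283379-66284401 on GRCm38, 1 exon) made up 4.58% of the pair's UMI in spermatogonia-like cells, 32.1% and 97.3% in early and late spermatocyte-like cells, and 84.6% and 74.6% in round and elongating spermatid-like cells. Over suffixes it was 3.66% to 6.19%, 25.7% to 38.3%, 96.4% to 98.4%, 81.1% to 86.5% and 68.5% to 80%, so the order of the stages held in every suffix. Its level peaked at 104 CPM (101 to 108) in late spermatocyte-like cells, while the pair's sum ran 493, 208, 107, 77.7 and 12 CPM along the stages. With the paralog added, the pair thus stayed below its spermatogonia-like level in all later stages. The median member fell along the same stages too, at 1598, 960.1, 587, 278 and 256 CPM. Part of the Rpl10 count may be split with Rpl10-ps3, which held 1.62% to 2.99% of their joint UMI in every class.

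**Figure D4:**
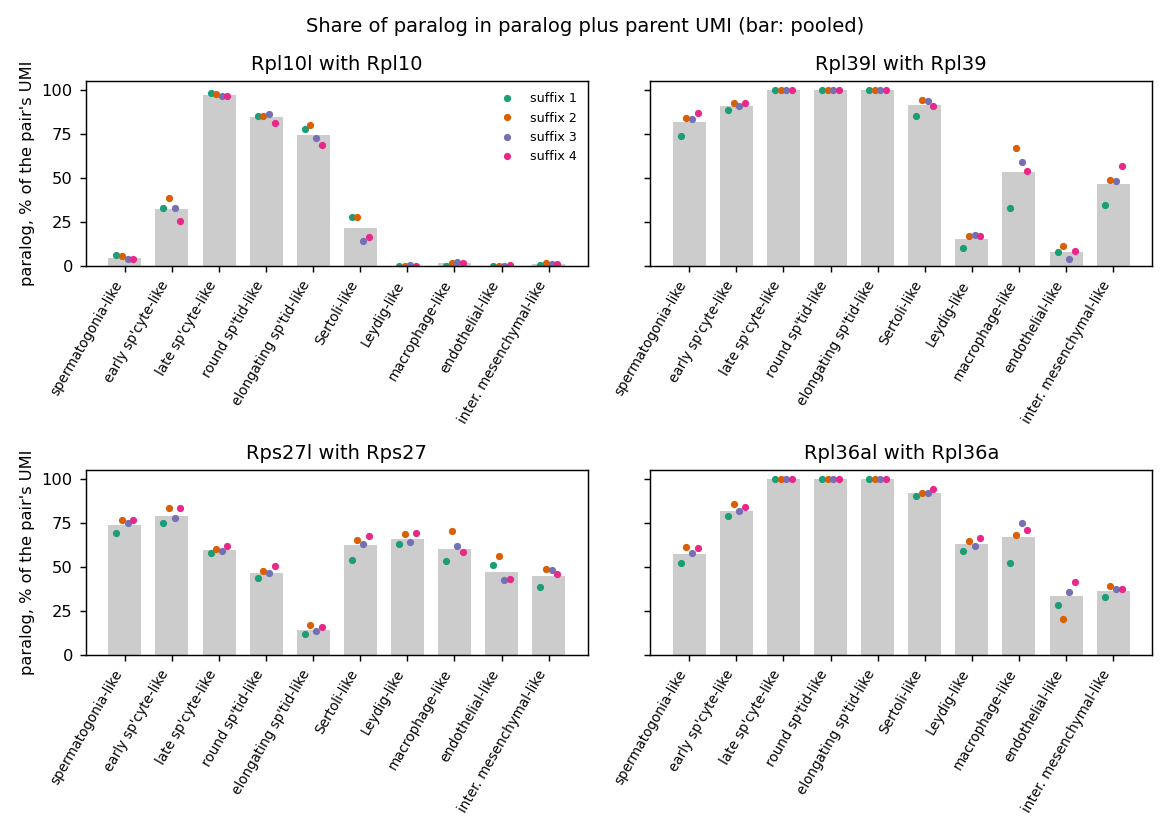
Paralog UMI as a percent of paralog plus parent in each class; bars give the pool and points the 4 suffixes. Rpl10l is 4.58% of its pair in spermatogonia-like and 97.3% in late spermatocyte-like cells, Rpl39l is already at 81.5% in spermatogonia-like cells, and Rps27l is at its lowest, 13.9%, in elongating spermatid-like cells.

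Rpl39l (ENSMUSG00000039209, chr16:10170226-10174911, 3 exons) was the main form of its pair in all germ cell classes. It was 81.5% of the pair among spermatogonia-like cells and 90.8% among early spermatocyte-like cells, and in the later classes 32606, 39208 and 22691 UMI of Rpl39l stood beside 11, 25 and 22 UMI of Rpl39. Its level was 431, 740.5, 916, 761 and 304 CPM along the 5 germ cell stages. With the parent added the pair had 528, 816, 916, 762 and 304 CPM, so this pair, unlike that of Rpl10, stayed above its spermatogonia-like level through the round spermatid-like class. Among the somatic classes Rpl39l was 91.3% of the pair in Sertoli-like, 53.3% in macrophage-like, 46.5% in interstitial mesenchymal-like, 15% in Leydig-like and 7.63% in endothelial-like cells.

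Empty droplets were not used, so UMI of the germ cell paralogs in somatic classes are given, and their source was not tested. Per cell, Rpl10l averaged 0.0335 UMI in Leydig-like, 0.0615 in macrophage-like, 0.0244 in endothelial-like and 0.044 in interstitial mesenchymal-like cells, and the Sertoli-like value of 0.0595 lay in that range. Per UMI the Sertoli-like level of Rpl10l was the highest of the 5, at 40.3 CPM, beside 20 CPM in macrophage-like, 19.4 in interstitial mesenchymal-like, 4.24 in Leydig-like and 3.53 in endothelial-like cells. By UMI per cell, elongating spermatid-like cells had 0.0729 and spermatogonia-like cells 0.105, not far above the somatic classes, whereas early, late and round classes had 0.25, 1.16 and 0.565. For Rpl39l the same 4 somatic classes averaged 0.555, 0.692, 0.244 and 0.589 UMI per cell and Sertoli-like cells, above that range, 0.825, against 2.01, 2.77, 10.2, 6.55 and 2.48 along the germ cell stages. Per UMI the order differed, with Rpl39l at 559 CPM in Sertoli-like cells, above spermatogonia-like (431) and elongating spermatid-like cells (304). The same 4 somatic classes had 70.1, 225, 35.3 and 259.8 CPM, and the early, late and round classes 740.5, 916 and 761 CPM. A UMI of Rpl10l was found in 34.4% of late spermatocyte-like cells (median 2568 UMI per cell) and 3.35% of Leydig-like cells (median 7704). After thinning to 1000 UMI per cell these were 8.14% of 2824 and 0.61% of 328 cells, with 372 shallower late spermatocyte-like cells left out. For Rpl39 the order was opposite, with a UMI in 0.344% of late spermatocyte-like and 91.2% of Leydig-like cells, or 0.0708% and 31.1% after thinning. Whether the few UMI of X-linked members in late germ cells were free RNA was not tested.

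Rps27l, a small subunit paralog induced by p53, behaved unlike the other pairs. It held 73.6%, 79%, 59.3%, 46.5% and 13.9% of its pair along the germ cell stages and 65.7% in Leydig-like cells. Its own level fell to 16.9 to 22 CPM over suffixes in elongating spermatid-like cells, against 106 to 129 CPM in round spermatid-like cells, while Rps27 had 98.5 to 167 CPM in elongating and 106 to 169 CPM in round spermatid-like cells, ranges that overlapped. Rps27rt, a near copy of Rps27 outside the member list, held 8.41% to 10.5% of the UMI it shared with Rps27 in the germ cell classes, so some Rps27 reads may be counted there. Rpl3l, known from heart and skeletal muscle, was nearly absent, with 4 to 11 UMI per germ cell class and at most 0.299% of its pair. It had 0 UMI in the somatic classes, which in the 1965 Sertoli-like cells, at their median of 1042 UMI, leaves at most 0.188% of cells with a UMI and sets no limit on cells that express the gene. Rpl6l held 3.81% to 6.36% of its sum with Rpl6 in all 10 classes, and its whole 3' end is shared with Rpl6, so its count cannot be told apart from Rpl6.

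Other genes of ribosome production and translation were counted by the same rule. Among 4 ribosomal protein-like genes outside the member list was Rpl36al, the autosomal retrocopy of X-linked Rpl36a. It made up 57.1%, 81.8%, 99.9%, 99.8% and 99.7% of its sum with Rpl36a along the germ cell stages. Its own level there was 561, 382, 493, 292 and 148 CPM, so the level did not rise above that in spermatogonia-like cells. The share was 91.9% in Sertoli-like, 67% in macrophage-like, 62.6% in Leydig-like, 36.3% in interstitial mesenchymal-like and 33.1% in endothelial-like cells. Gm6525, another copy, had 9, 44 and 26 UMI in late spermatocyte-like, round and elongating spermatid-like cells, beside 22, 37 and 31 for Rpl36a, so the residual Rpl36a count is uncertain. Rpl22l1 was 28.7%, 42.2%, 78.8%, 86.3% and 43.5% of its sum with Rpl22. Its own level was 395, 344, 393, 338 and 69.6 CPM, while Rpl22 had 980.1, 472, 106, 53.6 and 90.6 CPM. The share was 69.1% in interstitial mesenchymal-like, 62.6% in Sertoli-like, 56.1% in Leydig-like, 52.9% in macrophage-like and 39% in endothelial-like cells.

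Of 32 ribosome assembly genes tested in early spermatocyte-like against spermatogonia-like cells, 12 (37.5%) were lower and 0 higher, beside 20.5% and 11.1% of all genes. In late against early spermatocyte-like cells 14 of 30 (46.7%) were lower and 3 higher, beside 33.4% and 19.2% of all genes. In round spermatid-like against late spermatocyte-like cells 21 of 30 (70%) were lower and 1 higher, beside 35% and 33.7%. In elongating against round spermatid-like cells 23 of 28 (82.1%) were lower and 0 higher, beside 68.7% and 5.92%. Their last median log2 ratio was -1.99, close to the -1.86 of all genes, beside the -0.09 of the members. Ubtf, which activates transcription of rRNA genes, was at -3.01 in early spermatocyte-like over spermatogonia-like cells, and Ncl, the nucleolar protein nucleolin, at -4.41 in late over early spermatocyte-like cells. Rrs1, of large subunit assembly, was at -5.23 in round spermatid-like over late spermatocyte-like cells, and Fbl, the rRNA methylase fibrillarin, at -4.37 in elongating over round spermatid-like cells.

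Of the 20 elongation factor and other genes with a pyrimidine tract, 3 (15%) were higher and 8 (40%) lower in elongating against round spermatid-like cells, at a median of -0.52, beside 5.92% and 68.7% of all genes at a median of -1.86. Pabpc1, which binds poly(A) tails, fell to 148 CPM in elongating against 1466 CPM in round spermatid-like cells (-3.31). Gnb2l1, the older symbol of the small subunit protein RACK1, fell to 14.9 CPM in round spermatid-like against 232 CPM in late spermatocyte-like cells (-3.96), in the step at which Rpl10a and Rpl14 fell. Of 18 listed translation initiation genes, 17 were tested in elongating against round spermatid-like cells. Of these 3 (17.6%) were higher and 7 (41.2%) lower, beside 5.92% and 68.7% of all genes. Of 75 mitochondrial ribosomal protein genes tested there, 1 was higher and 52 (69.3%) lower, a share near the 68.7% of all genes. Their median was -1.76, and Mrps12 was lowest at -3.84. In round spermatid-like against late spermatocyte-like cells 56 of 76 (73.7%) were lower and 2 higher, beside 35% and 33.7% of all genes. The medians there were -1.50 and -0.32. In the earlier germ cell steps 15.8% and 25% were lower, beside 20.5% and 33.4% of all genes.

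The members in suffix 1 differed from those in the other suffixes in each germ cell class. The highest of the 4 suffix values was in suffix 1 for 46 of 78 members with at least 100 UMI in a suffix in spermatogonia-like, 62 of 75 in early and 68 of 76 in late spermatocyte-like, 42 of 77 in round and 46 of 76 in elongating spermatid-like cells. For all genes that share was 27.9%, 28.4%, 35.5%, 21.2% and 22.4%. Of 74 members measured in all 5 classes, Rpl37a, Rps29, Rpl27, Rps28 and Rpl23a were at least 1.5 times higher in suffix 1 than the median of the other suffixes in every class, and Rpl35 was at least 1.5 times lower. How many of all genes pass this every-class rule was not counted. A ratio of highest to lowest suffix over 1.5 was found in 23.1%, 22.7%, 36.8%, 14.3% and 14.5% of members along the germ cell stages. For all genes these shares were 9.5%, 15.7%, 12.2%, 11.2% and 12.2%. Rps28 had 120.1 CPM in suffix 1 of late spermatocyte-like cells, and 43.3, 58.7 and 48.5 CPM in suffixes 2 to 4. Rpl23a had 494 CPM there, and 189, 214 and 227 CPM in the others. Rpl35 had 65.1 CPM in suffix 1 of round spermatid-like cells, and 149, 152 and 145 CPM in the others. Rps28, Rpl23a, Rpl27, Rps29 and Rpl38 were among the largest ratios between suffixes, up to 2.77. For Rps28 the log2 difference ran from 0.85 to 1.35 over the 5 classes, and the source of these differences was not tested.

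**Figure D5:**
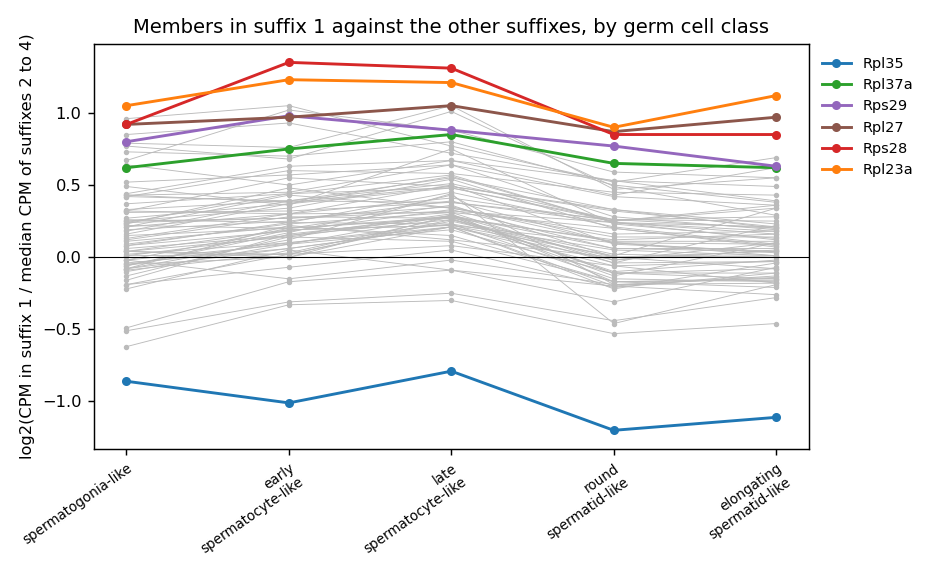
Log2 ratio of CPM in suffix 1 to the median CPM of suffixes 2 to 4 for each of 74 members in the 5 germ cell classes; coloured lines mark the 6 members at least 1.5 times apart in every class. Rpl23a runs from 0.90 to 1.23 and Rpl35 from -1.20 to -0.79.

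By level over the 10 classes, the genes most like Rpl10l were Cox7b2 and Pdha2, with Pearson correlations of 0.991 and 0.985, and those most like Rpl39l were Pias2 and Zfand4, with 0.995 and 0.984, among 8763 genes. The points are classes of 1 pooled matrix that share libraries, and the values describe likeness of pattern only.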

How the data were processed

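Testicular cells were profiled with a 3' droplet kit, per the labels' protocols. The deposited matrix holds whole UMI counts, not normalized, per the file headers. Cell Ranger 3.0.2, bcl2fastq 2.19.1.403 and mm10 are named in the submitters' processing notes.

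A cell needed 500 detected genes and no more than 10% mitochondrial UMI. Scrublet (scanpy 1.11.5, 6% expected, per suffix) marked 1 cell, or 0.00334%, so doublets remain. Counts were scaled to 10000 per cell and logged. The 2000 most variable genes, without members, list genes and mitochondrial genes, gave 30 components, 15 neighbours and, with leidenalg 0.10.2 at resolution 1, 27 clusters, 6 of them unnamed (7303 cells). The members, gene lists and markers were chosen with earlier results of these data known. A type was eligible for a cluster when at least 3 of its markers were detected in 5% of cells. Clusters took the eligible type with the highest mean z-score over all its listed markers, if it reached 0.5 and led by 0.05. They stayed unnamed below a median of 1000 UMI, where a germ cell and a somatic score were both above 0.6, or where markers of another type led. This scoring rule was set after the clusters were seen.

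UMI were summed per class. With 1 pooled matrix no test was run. Alternatives changed the clustering, filters, weights, scaling and libraries. The ratio step was tested on simulated counts. Named members were the pairs, Rpl36a, the stalk genes, the 5 highest and 5 lowest ratios that went the same way in all suffixes, the 3 with the most UMI per class, the 5 most unequal over suffixes per class, and the 3 most and least variable. Up to 4 called genes per other list were eligible. Positions came from GENCODE M21 on GRCm38, where all 81 members were found. The values of 1 member and 1 list gene that the naming rule selects are not reported here. Rps4l, Gas5 and Rack1 were not found under their symbols.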

Additional observations from a re-analysis of the deposited data

How the results depend on the processing

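No paired analysis was possible because no barcode suffix carries a sample or replicate label and no test was run; classes were instead compared within each suffix, and a call needed the same direction in all 4. Of 216 values for counts and shares under alternatives, 188 kept within 1.5 times (counts) or the counting interval (share), and 28 did not. With ratios centred on the median gene, members called lower were 14 in late over early spermatocyte-like, 14 in round spermatid-like over late spermatocyte-like, 1 in elongating over round spermatid-like (58 higher), 1 in spermatogonia-like over Sertoli-like and 11 over Leydig-like cells (2 higher), and Rpl39l reversed to 0.54 in elongating over round spermatid-like cells. At resolution 0.5, 2 were higher in early spermatocyte-like over spermatogonia-like cells, 38 were lower at the next step and 8 at the one after, and no Sertoli-like class was named, so that comparison gave no value. With list genes allowed in clustering 36 were lower in late over early spermatocyte-like cells. With means over cells 36 were lower there, 14 in round spermatid-like over late spermatocyte-like cells, and 7 were higher in elongating over round spermatid-like cells, as were 7 with totals without transition proteins and protamines. A mitochondrial limit of 20% gave 15 lower in early spermatocyte-like over spermatogonia-like cells. The share in spermatogonia-like over elongating spermatid-like cells, 4.81 times, was 4.84 and 4.73 at resolutions 0.5 and 2, 4.7 with list genes, 4.93 with 1000 genes per cell, 4.77 with the mitochondrial limit, 5.13 without high doublet scores, 4.59 with means over cells, 5.23 with clusters weighted equally, 4.1 without transition proteins and protamines, and 4.78, 4.77 and 4.86 without suffix 1, 3 and 4. The causes were not tested. Paralogs exceeded parents in 11 combinations, or 12 at resolution 0.5. Of 855 values for single genes, 23 newly passed the 2-fold rule and 13 no longer did. Classes rest on markers, libraries cannot be tied to genotypes, and members under 1 CPM rest on few UMI.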
